A study of Mus musculus with 6 samples.

Results

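The genes examined were 9 members of the bone morphogenetic protein (BMP) and activin system in murine embryonic fibroblasts (MEF): the ligand genes Bmp2, Bmp4 and Bmp6, the activin subunit genes Inhba and Inhbb, the protease gene Bmp1, and the genes of the secreted antagonists Grem1, Nog and Fst. Members were chosen by gene name. They were read by 12 of 55681 probes, and the array design carries 34797 names in all. The group was put together after Grem1 and Inhbb had been seen to be higher in TIA1 KO MEF than in WT MEF, so every value of that comparison is given for the 9 genes as a description, with no test. Differences of TIAR KO MEF from WT and from TIA1 KO MEF were tested for the other 7 members.

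The study asked how the loss of the RNA-binding protein TIA1 or of its relative TIAR alters the transcriptome of MEF, fibroblasts grown out of mouse embryos. The cells were immortalized lines labelled wild type (strain W4), TIA1 knock out (BALB/c) and TIAR knock out (C57BL/6), and the labels give no treatment, age or sex. Total RNA labelled with Cy3 was hybridized to 6 one-colour arrays, 2 per group, called independent replicates. Genotype, strain and cell line therefore cannot be told apart, and p-values measure only the spread between arrays of 1 line per genotype. All 6 arrays shared 1 slide, and the TIA1 KO arrays lay in row 2 of it while the other 4 lay in row 1, so the row and the TIA1 KO genotype cannot be told apart. The TIA1 KO arrays also had a higher median raw signal (458 and 218) than the WT (152 and 140) and TIAR KO (136 and 119) arrays, and fewer probes well above background (16021 and 19996, against 23569 to 26295 on the other 4). Replicates of TIA1 KO MEF differed more (SD 0.563 on the log2 scale over all probes) than those of WT (0.267) or TIAR KO MEF (0.300).

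BMPs and activins are secreted dimers of the TGF-beta superfamily that bring together type I and type II receptor kinases on the cell surface. BMP receptors phosphorylate Smad1, Smad5 and Smad9, whereas activin receptors phosphorylate Smad2 and Smad3, and in both cases Smad4 joins the complex that enters the nucleus. Antagonists such as gremlin, noggin and follistatin bind the ligands outside the cell and keep them from their receptors. In embryonic mesenchyme these signals are known for their part in patterning, skeletal differentiation and matrix production.

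Levels are log2 intensities of the authors' normalized table, and a log2 difference of 1 is a 2-fold change. Where a gene had more than 1 probe, the brightest was read, and probes are said to be well above background on an array where the scanner software rated them so. Levels of different probes are not comparable with each other. In bulk RNA, fewer expressing cells and less RNA per cell cannot be told apart.

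The targeted genes were read first. Tia1 was at 10.57 and 8.71 in WT, 7.52 and 8.38 in TIA1 KO and 9.75 and 9.77 in TIAR KO MEF, and the difference of TIA1 KO from WT (-1.69 ± 0.752, SE) did not pass the test (limma, adjusted p = 0.247). It was -0.76 without WT replicate 1 and -2.62 without WT replicate 2. With a common array median it passed (-2.14, limma, adjusted p = 0.000162). In that setting Gapdh was lower in TIA1 KO than in WT MEF too (-1.42, limma, adjusted p = 0.0158). Of the 15801 probes called there, 13925 were lower, so this pass is not particular to Tia1. Both TIA1 KO values lay below the WT values, and only 1 of them was well above background. A second Tia1 probe was lower in TIA1 KO MEF as well (7.31 and 8.69, against 9.73 and 10 in WT), which did not pass either (-1.87 ± 0.526, adjusted p = 0.149). The other, dimmer probe for a Tia1 transcript was higher in TIA1 KO MEF (8.15 and 8.61) than in WT (7.34 and 7.22), with adjusted p = 0.106. The brighter of 2 probes for Tial1, which encodes TIAR, read 13.29 in WT replicate 2 (the spot of replicate 1 was an outlier and was left out) and 9.80 and 11.78 in TIAR KO MEF, which was not called (-2.5 ± 0.816, limma, adjusted p = 0.188). The dimmer probe was called lower in TIAR KO MEF (10.23 and 9.86, against 11.84 and 11.19 in WT, limma adjusted p = 0.0316). Whether any of these probes lies in the deleted part is not given in the sources used here. Gapdh was at 18.65 and 18.73 in WT, 18.55 and 18.73 in TIA1 KO and 18.72 and 18.82 in TIAR KO MEF.

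Among the 9 members, 5 were more than 2-fold higher in TIA1 KO than in WT MEF (Bmp1, Bmp4, Grem1, Inhba and Inhbb) and 2 were more than 2-fold lower (Fst and Nog), while 9.46% and 7.97% of all probes were past that fold in the same directions. The median log2 difference of the members was 1.10, against -0.12 over all probes. Groups did not overlap for 65.4% of all probes in this comparison, 47% in TIAR KO against WT and 60.4% in TIAR KO against TIA1 KO MEF. The counts describe the comparison that chose the group, and nothing is read from them. The promoters of 4 of the 5 higher members are shown because they were higher together: the 250 bases before the transcription start in RefSeq GRCm38.p6, read 5′ to 3′ on the strand of the gene, for Grem1 (chr2:113758649-113758898, minus strand), Inhbb (chr1:119422249-119422498, minus), Bmp4 (chr14:46390670-46390919, minus) and Inhba (chr13:16011601-16011850, plus). Capitals mark matches, on either strand, to a TATA box (TATAAA), a GC box (GGGCGG), an AP-1 site (TGACTCA), a cAMP response element (TGACGTCA) or a GC-rich Smad site (GGCGCC). No match overlapped another.
Grem1: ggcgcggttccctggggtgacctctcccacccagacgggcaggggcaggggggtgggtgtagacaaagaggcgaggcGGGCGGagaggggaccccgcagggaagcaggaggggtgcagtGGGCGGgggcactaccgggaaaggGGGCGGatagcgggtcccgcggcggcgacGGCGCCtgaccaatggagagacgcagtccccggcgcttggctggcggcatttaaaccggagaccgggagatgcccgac
Inhbb: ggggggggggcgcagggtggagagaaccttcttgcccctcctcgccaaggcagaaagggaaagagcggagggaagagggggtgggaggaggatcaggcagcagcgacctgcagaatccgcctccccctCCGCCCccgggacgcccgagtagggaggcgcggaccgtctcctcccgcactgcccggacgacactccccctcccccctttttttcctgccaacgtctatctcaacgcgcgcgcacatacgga
Bmp4: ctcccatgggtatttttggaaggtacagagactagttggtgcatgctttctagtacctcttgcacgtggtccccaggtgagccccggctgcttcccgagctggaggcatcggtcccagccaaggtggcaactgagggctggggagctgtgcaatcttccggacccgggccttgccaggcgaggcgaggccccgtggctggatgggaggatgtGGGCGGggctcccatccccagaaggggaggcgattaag
Inhba: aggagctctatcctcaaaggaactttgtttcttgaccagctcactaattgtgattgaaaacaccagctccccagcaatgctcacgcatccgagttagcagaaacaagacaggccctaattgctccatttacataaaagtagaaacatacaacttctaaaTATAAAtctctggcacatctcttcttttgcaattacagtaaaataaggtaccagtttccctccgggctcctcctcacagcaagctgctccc
The Grem1, Inhbb and Bmp4 windows were GC-rich (72.0%, 68.0% and 63.2%, with 24, 21 and 11 CpG), whereas that of Inhba was not (43.2%, with 3 CpG). The median over 32851 promoters was 52.4% and 6 CpG. GC boxes numbered 3 in Grem1, 1 in Inhbb, 1 in Bmp4 and 0 in Inhba, and 32.7% of all promoters hold at least 1. Grem1 also held GGCGCC, as do 9.59% of promoters, and Inhba held TATAAA 91 bases before its start, as do 12.4%. None of the 4 windows held TGACTCA (4.46% of promoters) or TGACGTCA (1.55%). A match is a description of these letters and says nothing of a factor. The windows were picked by the TIA1 KO values that chose the group, so setting them beside all promoters tests nothing. Of the 9 members, 5 had a promoter in the set used. The one not shown is that of Bmp6, which was GC-rich too (68.8%, with 22 CpG and 1 GC box). Bmp6 was not higher in TIA1 KO than in WT MEF (log2 -0.20, not well above background).

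**Figure D1:**
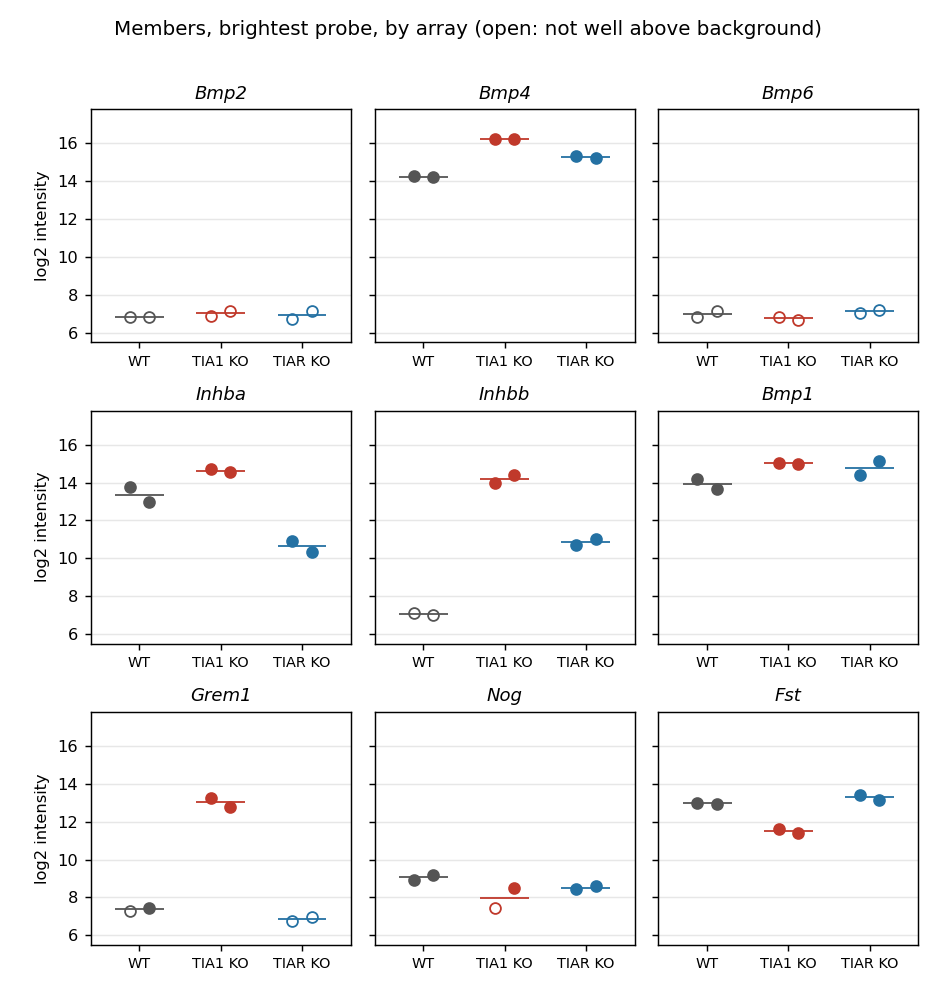
Log2 intensity of the brightest probe of each of the 9 members on the 6 arrays (points, filled where well above background, open where not; horizontal lines, group means). Grem1 stood above 12 in TIA1 KO MEF only, Inhbb was near background in WT, and Inhba was lowest in TIAR KO MEF.

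The antagonists moved in different directions. Grem1 encodes gremlin, which binds BMP2, BMP4 and BMP7. Its probe (mm9 chr2:113589227-113589286) read 7.31 and 7.43 in WT, 13.26 and 12.79 in TIA1 KO and 6.76 and 6.99 in TIAR KO MEF. Both TIA1 KO arrays stood far above the other 4, on which only WT replicate 2 was well above background. The level in TIA1 KO MEF was 5.66 ± 0.24 log2 units above WT (SE from the array spread, n = 2 per group). This is 50.4-fold, with 1 of the 2 WT arrays not well above background. TIAR KO MEF were at least 71.0-fold below TIA1 KO MEF on the values as deposited. Over the alternatives the log2 difference of TIA1 KO from WT MEF lay between 4.68 and 7.61. That of TIAR KO from TIA1 KO MEF lay between -9.425 and -5.01. Between WT and TIAR KO MEF the groups did not overlap, but the TIAR KO level (log2 difference -0.50) was not well above background.

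Nog encodes noggin, which blocks BMP2, BMP4 and BMP7. Its probe (chr11:89162849-89162908) read 8.94 and 9.17 in WT, 7.42 and 8.51 in TIA1 KO and 8.43 and 8.59 in TIAR KO MEF, so that the highest values were those of WT. The first TIA1 KO array was not well above background, and the mean in TIA1 KO MEF was 1.09 ± 0.557 (SE) lower than in WT. It was 0.55 lower without TIA1 KO replicate 1 and 1.64 lower without TIA1 KO replicate 2. In TIAR KO MEF the difference from WT (-0.55 ± 0.174) was not called (limma, adjusted p = 0.153), nor was that from TIA1 KO MEF (0.55 ± 0.42, adjusted p = 0.461). With TIA1 KO replicate 1 left out the latter was 0, and with replicate 2 left out it was 1.09 and was called (adjusted p = 0.0387).

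Fst encodes follistatin, the high-affinity inhibitor of activins. Its probe (chr13:115243565-115243624) read 13.01 and 12.95 in WT, 11.63 and 11.42 in TIA1 KO and 13.42 and 13.16 in TIAR KO MEF. TIA1 KO MEF thus held the lowest level, 1.46 ± 0.109 (SE) log2 units or 2.74-fold below WT, and the log2 difference was -3.001 with a common array median. The level in TIAR KO MEF was 1.77 ± 0.195 above that in TIA1 KO MEF, or 3.40-fold, and was called (limma, adjusted p = 0.0438), while the difference of TIAR KO from WT MEF (0.31 ± 0.172) was not (adjusted p = 0.421). Over the alternatives the log2 difference between the knockouts lay between 1.64 and 2.93. The call between the knockouts was lost without TIAR KO replicate 1 (adjusted p = 0.406) or 2 (0.394), with differences of 1.64 and 1.90, with the replicate block (0.162) and at the 75th percentile (0.0695).

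The activin subunits parted in the TIAR KO MEF. Inhbb encodes the beta-B subunit of activin B and inhibin B. Its probe (chr1:121312160-121312219) read 7.10 and 7.02 in WT, 13.99 and 14.40 in TIA1 KO and 10.71 and 11.02 in TIAR KO MEF. The 3 groups did not overlap, and neither WT array was well above background. On the values as deposited, the level was at least 141-fold higher in TIA1 KO and at least 14.0-fold higher in TIAR KO MEF than in WT. The log2 differences, near background, were 7.14 ± 0.21 and 3.81 ± 0.16 (SE), and some alternatives below went under them. TIA1 KO MEF stood 10.1-fold above TIAR KO MEF. Over the alternatives the log2 difference between the knockouts lay between -3.55 and -2.23, the latter with a common array median, and that of TIAR KO from WT MEF between 3.65 and 6.98, the latter at the 75th percentile. The difference of TIA1 KO from WT MEF lay between 6.19, with a common array median, and 10.5, at the 75th percentile.

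Inhba encodes the beta-A subunit of activin A. Its probe (chr13:16118634-16118693) read 13.77 and 12.97 in WT, 14.72 and 14.55 in TIA1 KO and 10.94 and 10.36 in TIAR KO MEF, well above background on all 6 arrays. Here TIAR KO MEF were lowest and TIA1 KO MEF highest, without overlap. Inhba fell by 2.72 ± 0.33 log2 units (SE), or 6.59-fold, in TIAR KO against WT MEF (limma, adjusted p = 0.0077). The TIAR KO level was 15.8-fold below that of TIA1 KO MEF (log2 difference -3.99 ± 0.264, adjusted p = 0.0183). In TIA1 KO MEF it was 1.27 ± 0.409 log2 units or 2.40-fold above WT, 0.87 without WT replicate 2 and -0.26, below WT, with a common array median.

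The direction of Inhba against WT was kept in every fit that left out an array (-2.32 to -3.12), but the call was lost without WT replicate 1 (adjusted p = 0.0838), WT replicate 2 (0.0506), TIAR KO replicate 1 (0.116) or TIAR KO replicate 2 (0.159). Against TIA1 KO MEF the call was lost without TIAR KO replicate 1 (-4.28) or 2 (-3.70) and with the replicate block. Over the alternatives this log2 difference lay between -4.28 and -2.96.

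**Figure D2:**
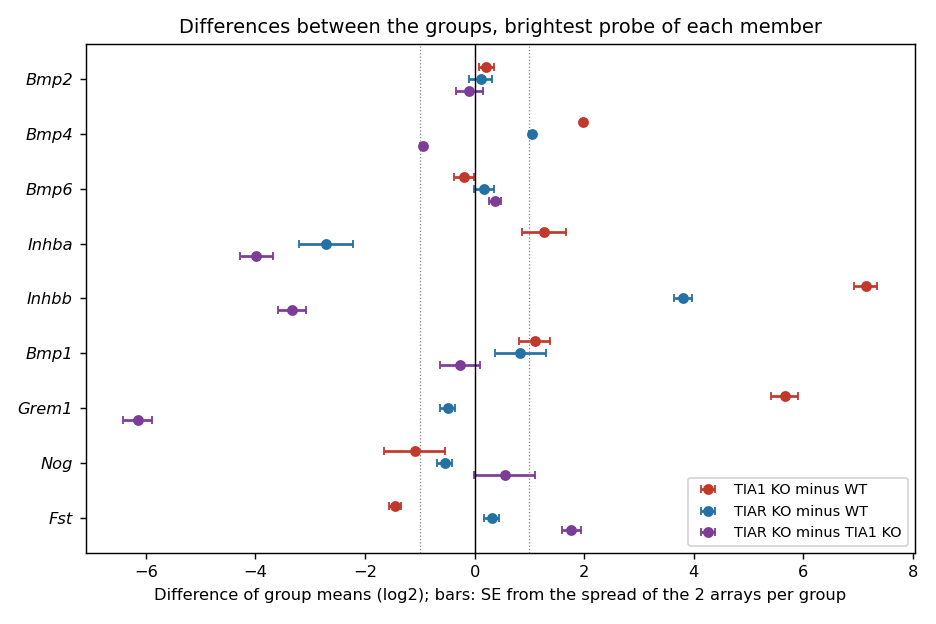
Differences of group means for the 9 members (log2, brightest probe; bars, SE from the spread of the 2 arrays per group; dotted lines, 2-fold). Inhba lay above 0 in TIA1 KO and below 0 in TIAR KO MEF, at 1.27 and -2.72, whereas Inhbb lay above 0 in both.

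Among the BMP ligands, Bmp4 was the measurable one. Its bright probe (chr14:47003391-47003450) read 14.26 and 14.23 in WT, 16.23 and 16.23 in TIA1 KO and 15.33 and 15.24 in TIAR KO MEF. The order was WT, TIAR KO, TIA1 KO, and replicates of each group lay closer to each other than to any other group. Bmp4 was 1.99 ± 0.015 log2 units (SE) or 3.96-fold higher in TIA1 KO than in WT MEF, and 0.37 with a common array median. It rose by 1.04 ± 0.155 log2 units, or 2.06-fold, in TIAR KO against WT MEF (limma, adjusted p = 0.0162). The level in TIAR KO MEF was 0.95 ± 0.158 below TIA1 KO MEF, which was not called (adjusted p = 0.086). The call against WT lay just past the fold threshold, and it was lost when any of the 4 arrays was left out (0.995 to 1.08, adjusted p = 0.12 to 0.138), with the replicate block (adjusted p = 0.0559), at the 75th percentile (0.64, adjusted p = 0.34) and with a common array median (0.55, adjusted p = 0.0826). A second Bmp4 probe (chr14:47003198-47003257) was not well above background on any array.

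Bmp2 (chr2:133388260-133388319) and Bmp6 (chr13:38591479-38591538), which encode further BMP ligands, were not well above background on any array. Bmp2 ranged from 6.73 to 7.17 and Bmp6 from 6.70 to 7.22 over the 6 arrays. At these signals no difference was detectable, and in TIAR KO against WT MEF the adjusted p was 0.841 for Bmp2 and 0.72 for Bmp6 (limma).

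Bmp1 is not a BMP ligand but a tolloid-type metalloprotease that cleaves procollagens and the BMP antagonist chordin. Its 3 probes, all well above background on every array, did not give 1 answer for TIAR KO MEF. The brightest (chr14:70874370-70874429) read 14.20 and 13.64 in WT, 15.06 and 14.98 in TIA1 KO and 14.39 and 15.12 in TIAR KO MEF. On it the knockouts overlapped each other and lay above WT, by 1.10 ± 0.283 (SE) in TIA1 KO and by 0.84 ± 0.312 in TIAR KO MEF, where it was not called (limma, adjusted p = 0.22). With a common array median the TIA1 KO difference was -0.46. The TIAR KO difference was 1.2 without TIAR KO replicate 1, 0.47 without TIAR KO replicate 2, 0.56 without WT replicate 2 and 0.42 with a common array median, and was called in none of these.

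The second Bmp1 probe (chr14:70886415-70886474), which the array design assigns to a non-coding transcript, read 12.56 and 12.61 in WT, 13.47 and 13.39 in TIA1 KO and 14.71 and 14.08 in TIAR KO MEF. It was called 3.51-fold higher in TIAR KO than in WT MEF (limma, log2 1.81 ± 0.241, adjusted p = 0.0109). The third (chr14:70890355-70890414) read 10.92 and 11 in WT, 11.47 and 11.29 in TIA1 KO and 11.93 and 12.11 in TIAR KO MEF, and was called 2.08-fold higher in TIAR KO MEF (log2 1.06 ± 0.164, adjusted p = 0.018). Both dimmer probes were highest in TIAR KO MEF, unlike the brightest. The mean of the 3 probes was 1.24 log2 units higher in TIAR KO than in WT MEF (adjusted p = 0.01). Whether the probes lie in coding exons or UTRs is not given in the sources used here.

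Of the 7 tested members, 1 was called higher (Bmp4) and 1 lower (Inhba) in TIAR KO against WT MEF on the brightest probe, where 3.34% of all probes were called higher and 2.36% lower. Between TIAR KO and TIA1 KO MEF, 1 was called higher (Fst) and 1 lower (Inhba), where 1.1% of all probes were called higher and 1.2% lower. A call each way among 7 genes is too few to be set against these shares. An exact permutation test of 2 arrays against 2 cannot give a two-sided p below 0.333, so the calls rest on limma's spread over all probes.

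The genes whose pattern over the 6 arrays was most like that of Grem1 were Lysmd2 (r = 0.9993), Elovl7 (0.9988), Ramp2 (0.9988) and Cyp7b1 (0.9986). For Inhbb they included Hic1 (0.9993), Smoc2 (0.9992) and Thbs1 (0.9991). These are descriptions over 6 arrays in 3 groups. Of 11975 candidate genes, 300 correlated above 0.95 with Grem1 and 257 with Inhbb, so a high value was not particular to the genes named. How many came as near as those named was not counted. Smoc2, which encodes a matricellular protein, read 7.14 and 7.28 in WT, 14.33 and 14.61 in TIA1 KO and 11.16 and 11.37 in TIAR KO MEF.

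The rest of the pathway was read from 76 genes in 6 lists. In TIA1 KO against WT MEF 5 were called higher and 1 lower, in TIAR KO against WT MEF 7 higher and 2 lower. Between TIAR KO and TIA1 KO MEF 3 were called higher and 1 lower. Over all probes, 1.56% were called higher and 0.787% lower in TIA1 KO MEF, while the shares for TIAR KO MEF were 3.34% and 2.36%. Between the knockouts the shares were 1.1% and 1.2%. The lists below also give counts at an unadjusted p under 0.05 (limma). Over all 55681 probes, 14527 passed it in TIA1 KO against WT and 10863 in TIAR KO against WT MEF. In TIAR KO against TIA1 KO MEF 11935 did. The median log2 difference over the 76 genes was -0.07 for TIA1 KO MEF and 0.06 for TIAR KO MEF, against -0.12 and -0.02 over all probes. These lists were assembled with earlier results known, and nothing particular to them is read from the counts.

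**Figure D3:**
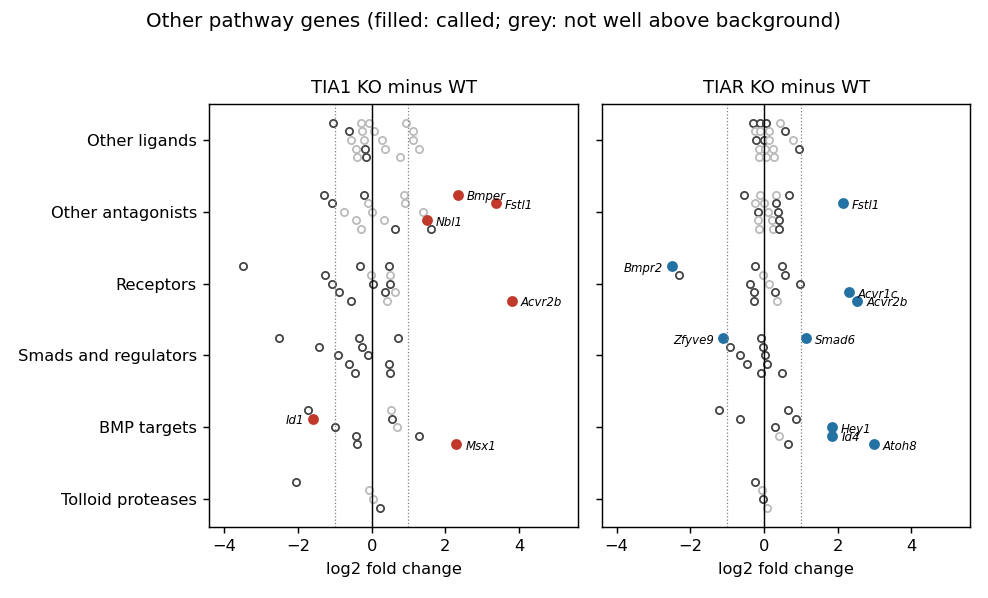
Log2 differences of the 76 other pathway genes from WT in TIA1 KO (left) and TIAR KO MEF (right), by list (filled and named, called by limma; grey, not well above background on both arrays of either group; dotted lines, 2-fold). Acvr2b and Fstl1 were called higher in both comparisons, and no ligand was called in either.

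Of 19 other ligand genes, 0 were called in any comparison by limma (2 passed an unadjusted p under 0.05 in TIA1 KO against WT, 2 in TIAR KO against WT and 5 in TIAR KO against TIA1 KO MEF), and 15 were not well above background on both arrays of WT or of TIA1 KO MEF. Of 17 other antagonist genes, 3 were called higher in TIA1 KO MEF and 0 lower, where 5 and 2 passed an unadjusted p under 0.05. Fstl1, a follistatin-like secreted glycoprotein gene, read 13.60 and 13.64 in WT, 17.00 and 16.99 in TIA1 KO and 15.63 and 15.87 in TIAR KO MEF. It was called higher in both, 10.4-fold in TIA1 KO (limma, adjusted p = 0.00986) and by 2.13 ± 0.169 log2 units in TIAR KO MEF (adjusted p = 0.0017).

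Bmper, which encodes a BMP-binding endothelial regulator, read 9.66 and 9.48 in WT, 11.75 and 12.06 in TIA1 KO and 9.68 and 10.28 in TIAR KO MEF. It was called higher in TIA1 KO MEF (limma, log2 2.34 ± 0.192, adjusted p = 0.0292) and not in TIAR KO MEF (0.41, adjusted p = 0.448). Their difference was not called either (-1.93, adjusted p = 0.0709). Nbl1, the gene of the DAN antagonist, read 12.47 and 12.49 in WT, 13.97 and 13.99 in TIA1 KO and 13.17 and 13.13 in TIAR KO MEF. Its rise in TIA1 KO MEF (1.5 ± 0.142, limma adjusted p = 0.0359) was -0.05 when arrays were scaled to a common median.

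Of 15 receptor and co-receptor genes, 1 was called higher in TIA1 KO MEF, and 2 were called higher and 1 lower in TIAR KO MEF. The type II receptors did not move together. Acvr2b, an activin type II receptor gene, read 8.26 and 8.45 in WT, 12.27 and 12.05 in TIA1 KO and 10.85 and 10.92 in TIAR KO MEF, and was called higher in both knockouts, 14.0-fold (limma, adjusted p = 0.0115) and 5.78-fold (adjusted p = 0.000874). The order of its group means was that of Inhbb, and also of Bmp4, Fstl1, Nbl1 and Bmper. Bmpr2, the BMP type II receptor gene, read 13.02 and 13.67 in WT, 9.38 and 10.33 in TIA1 KO and 10.78 and 10.91 in TIAR KO MEF. It fell by 2.5 ± 0.249 log2 units in TIAR KO MEF (limma, adjusted p = 0.00376). In TIA1 KO MEF, where 1 array was not well above background, its difference of -3.49 ± 0.438 missed the threshold (adjusted p = 0.0573). It was called in 6 of 12 alternatives and lay between -4.66 and -3.02 (log2) over them.

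Acvr2a, the other activin type II receptor gene, read 9.51 and 9.0 in WT, 7.37 and 8.60 in TIA1 KO and 8.92 and 8.82 in TIAR KO MEF. It was not called (limma, adjusted p = 0.216 and 0.427). Acvr1c, which encodes the type I receptor ALK7, was well above background in TIAR KO MEF alone (8.47 and 9.13, against 6.52 and 6.47 in WT) and was called there, at least 4.17-fold higher (adjusted p = 0.00497). TIAR KO and TIA1 KO MEF were not called different for it (log2 1.89, adjusted p = 0.0744).

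**Figure D4:**
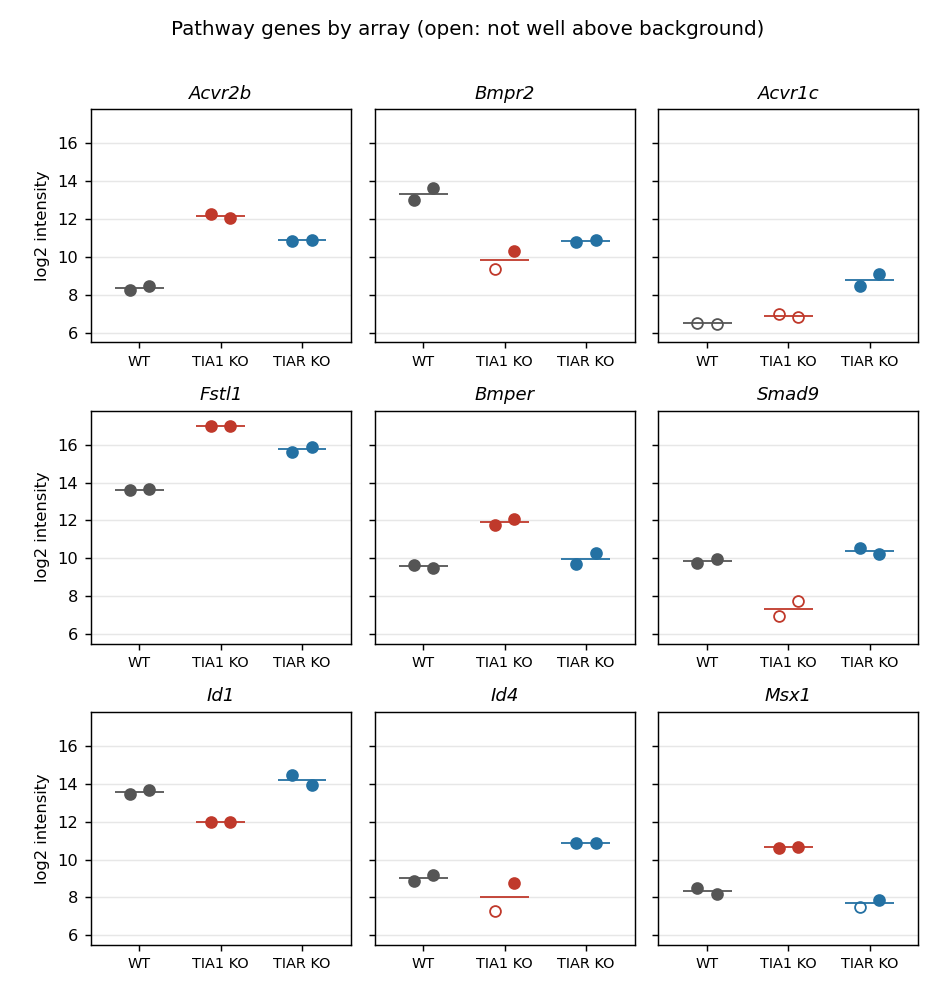
Log2 intensity of 9 pathway genes on the 6 arrays (points, filled where well above background, open where not; horizontal lines, group means). Acvr2b and Fstl1 were lowest in WT and Bmpr2 highest in WT, while Id1, Msx1 and Smad9 separated the 2 knockouts.

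No Smad that receives BMP signals was called against WT on its brightest probe. Smad5 read 13.94 and 13.96 in WT, 13.81 and 13.88 in TIA1 KO and 14.28 and 13.45 in TIAR KO MEF, and Smad1 differed from WT by -0.62 and -0.03, none of it called (limma, adjusted p = 0.453 to 0.972). A dimmer Smad5 probe differed, with 9.58 and 9.12 in WT, 6.98 and 7.73 in TIA1 KO and 8.64 and 8.44 in TIAR KO MEF, the TIA1 KO arrays not well above background, and was not called either (log2 -1.995 and -0.81, adjusted p = 0.0894 and 0.093). Smad9 read 9.77 and 9.97 in WT, 6.94 and 7.75 in TIA1 KO and 10.53 and 10.21 in TIAR KO MEF. It was not well above background in TIA1 KO MEF, and TIAR KO MEF were called at least 5.78-fold higher than these (adjusted p = 0.0463), while TIA1 KO against WT missed the threshold (-2.53, adjusted p = 0.0611).

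Smad6, the gene of an inhibitory Smad, rose by 1.14 ± 0.187 log2 units in TIAR KO against WT MEF (limma, adjusted p = 0.0218). Zfyve9, which encodes the receptor-Smad anchor SARA, fell by 1.12 ± 0.193 (adjusted p = 0.0259). Both kept their direction but were called in 5 of 12 alternatives, and neither was called with processed intensities at the 75th percentile, with the replicate block, with all 3 groups fitted or without any 1 of the 4 arrays (adjusted p = 0.0503 to 0.232). No other gene of the 11 in this list was called against WT.

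Of 10 genes known as BMP targets, 1 was called higher and 1 lower in TIA1 KO MEF. In TIAR KO MEF 3 were called higher and 0 lower. There 6 and 1 passed an unadjusted p under 0.05 (limma), as did 10863 of all 55681 probes. Id1, a dominant-negative helix-loop-helix protein gene, read 13.46 and 13.66 in WT, 11.97 and 11.99 in TIA1 KO and 14.46 and 13.96 in TIAR KO MEF. It was called lower in TIA1 KO than in WT MEF (limma, log2 -1.58 ± 0.159, adjusted p = 0.0392) and higher in TIAR KO than in TIA1 KO MEF (2.23 ± 0.235, adjusted p = 0.041). Msx1, a homeobox gene, ran the other way, with 8.50 and 8.18 in WT, 10.59 and 10.69 in TIA1 KO and 7.52 and 7.86 in TIAR KO MEF. It was called higher in TIA1 KO than in WT MEF (2.30 ± 0.186, adjusted p = 0.0282) and lower in TIAR KO than in TIA1 KO MEF (-2.95 ± 0.199, adjusted p = 0.0188). The targets thus gave no common direction in TIA1 KO MEF.

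Id2 and Id3, which encode relatives of Id1, were not called in either knockout. Id3 read 15.35 and 15.66 in WT, 15.09 and 15.07 in TIA1 KO and 16.41 and 16.31 in TIAR KO MEF, and Id2 differed from WT by -1.73 and -1.21 (limma, adjusted p = 0.0623 and 0.33). The targets called higher in TIAR KO MEF were Id4 (log2 1.86 ± 0.181, adjusted p = 0.00356), the Notch and BMP effector gene Hey1 (at least 3.58-fold, adjusted p = 0.00647) and the helix-loop-helix gene Atoh8. Atoh8 read 8.38 and 8.52 in WT and 11.42 and 11.45 in TIAR KO MEF, a 7.92-fold rise (adjusted p = 0.000485), while its TIA1 KO arrays lay far apart at 7.75 and 10.27. Among 4 other genes of the tolloid list, Pcolce2, a procollagen C-proteinase enhancer gene, was called higher in TIAR KO than in TIA1 KO MEF (2.02 ± 0.222, adjusted p = 0.0436) and 0 were called against WT (1 and 0 at an unadjusted p under 0.05 in TIA1 KO and TIAR KO MEF).

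Markers of cell types moved with the groups as well, and their part in the results above was not tested. Of 10 fibroblast markers, those well above background numbered 8 and 9 in WT, 9 and 9 in TIA1 KO and 10 and 10 in TIAR KO MEF. Pdgfra was not well above background in WT, and Thy1 was so on 1 WT array and no TIA1 KO array. The list's summed intensity was 582900 and 621200 in WT, 1615000 and 1613000 in TIA1 KO and 1795000 and 1766000 in TIAR KO MEF, where the brightest probe was that of S100a4 in WT and of Col1a2 in TIA1 KO MEF. In TIA1 KO and TIAR KO MEF 6 and 8 of the 10 were called higher than in WT, against 1.56% and 3.34% of all probes. The genes differed widely in size, which the sums do not show. Col3a1 was 65.3- and 76.6-fold and Acta2 26.7- and 42.2-fold higher in TIA1 KO and TIAR KO MEF. Vim (1.33- and 1.37-fold) and S100a4 (1.01- and 1.33-fold) were called in neither. Thy1 was called in TIAR KO MEF only.

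Of 8 epithelial and mesothelial markers, those well above background numbered 3 and 4 in WT, 3 and 5 in TIA1 KO and 7 and 7 in TIAR KO MEF, and the Msln probe was the brightest on all 6 arrays. Their sum was 98770 and 68060 in WT, 271900 and 234300 in TIA1 KO and 54540 and 51270 in TIAR KO MEF. Msln itself read 16.50 and 15.91 in WT, 17.99 and 17.76 in TIA1 KO and 14.76 and 14.47 in TIAR KO MEF. It was called lower in TIAR KO MEF than in WT (limma, -1.59 ± 0.247, adjusted p = 0.0186) and than in TIA1 KO MEF (-3.26, adjusted p = 0.0164). The rest of the list had another order. Without Msln the sum was 6086 and 6485 in WT, 11610 and 12360 in TIA1 KO and 26790 and 28580 in TIAR KO MEF. Upk3b (13.90 and 14.16) and Wt1 (11.13 and 10.74) were well above background in TIAR KO MEF alone. In TIA1 KO MEF the summed cartilage and bone list stood at 6384 and 5656, against 1375 and 1286 in WT and 1427 and 1441 in TIAR KO MEF. Col2a1 carried that sum (12.46 and 12.23 in TIA1 KO, 7.39 and 7.34 in WT), and without Col2a1 it was 750 and 852 there. Sox9 read 9.20 and 9.12 in WT and 7.35 and 8.43 in TIA1 KO MEF (log2 -1.27, limma adjusted p = 0.174, not called), and Sp7 and Ibsp were not well above background on any array.

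The fat list, whose brightest probes were those of Pparg and Fabp4, summed to 2031 and 2433 in WT, 7830 and 8379 in TIA1 KO and 4324 and 4414 in TIAR KO MEF. Pparg had the same order of groups, whereas Fabp4 was highest in TIAR KO MEF (11.38 and 11.32, against 10.48 and 10.81 in WT and 10.53 and 11.04 in TIA1 KO MEF), and Adipoq was not well above background on any array. The leukocyte list summed to between 10900 and 23060, highest in TIA1 KO MEF, and Itgam carried the latter sum (8501 and 8367 without it). Its genes differed in direction between TIAR KO and TIA1 KO MEF, with Itgam (-1.63) and Cd14 (-1.51) called lower and Cd68 (1.65) called higher in TIAR KO MEF (limma, adjusted p = 0.0469, 0.0392 and 0.0475), and Ptprc was not well above background on any array. The endothelial list summed to between 3301 and 4321, most of it from Kdr, with Cdh5 not well above background on any array. The muscle list summed to between 493 and 767, mostly at background. Of its genes, Des was well above background on both TIAR KO arrays. It was called higher there than in WT (limma, 2.22-fold, adjusted p = 0.0126) and than in TIA1 KO MEF (at least 2.28-fold, adjusted p = 0.0402).

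**Figure D5:**
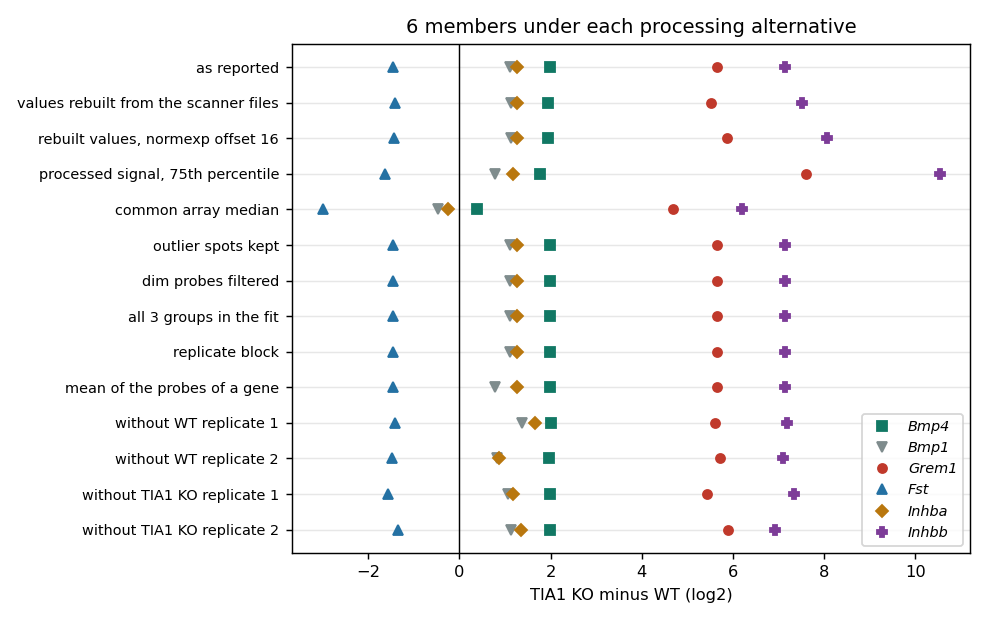
Log2 difference of TIA1 KO from WT MEF for 6 members (symbols) as reported and under each of the 13 processing alternatives (rows). Grem1 stayed between 4.68 and 7.61 and Inhbb between 6.19 and 10.5, whereas Bmp1 and Inhba crossed 0 when arrays were scaled to a common median (-0.46 and -0.26).

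The scaling of the arrays moved small and large differences alike. With a common array median, the median difference over all probes moved from -0.12 to -0.67 in TIA1 KO against WT MEF and that of Gapdh from -0.05 to -1.42. Among the pathway genes called there, Fstl1 then stood at 1.89 in place of 3.38, Bmper at 1.14 in place of 2.34 (no longer called), Msx1 at 1.41 in place of 2.30 and Id1 at -3.17 in place of -1.58, while Acvr2b stood at 2.83 in place of 3.81. Between the knockouts Id1 (3.42) and Pcolce2 (3.15) moved outward with a common array median and Msx1 (-4.58) at the 75th percentile, where Acvr1c (5.05) and Hey1 (3.93) did so in TIAR KO against WT MEF. Neither Acvr1c nor Hey1 was well above background in WT, so the size of these differences is not exact. Bmp4, Grem1, Nog, Fst and Inhbb kept their direction against WT in TIA1 KO MEF under all 13 alternatives. Each pathway gene called in a comparison kept its sign there under the 12 alternatives run for it, except Nbl1 in TIA1 KO against WT MEF, and was called in 5 to 10 of them.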

How the data were processed

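The authors deposited the scanner output of 6 arrays (Agilent Feature Extraction 10.7.3.1, Agilent SurePrint G3 Mouse, probe positions on mm9), whose spot intensities are linear and not normalized between arrays. A second deposited file gives log2 values per spot, which their methods describe as normexp-corrected (offset 50), loess-adjusted and quantile-normalized. That file was the source of every value reported, matched to the scanner files by feature number, and each column correlated best with its own array (r = 0.997 to 0.999 with values rebuilt from the intensities). Quality flags came from the scanner software.

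Control spots and spots marked as outliers were left out, spots of a probe averaged, and a gene with several probes read from the brightest over the 6 arrays. A missing value was not imputed (1 WT array for the brightest Tial1 probe, whose WT group then held 1 array). Each comparison was fitted with limma 3.58.1 (lmFit and eBayes, in R 4.3.3) on its own 4 arrays over 55681 probes, and calls needed a p under 0.05 after Benjamini-Hochberg adjustment and a change of more than 2-fold. Sums of markers are sums of linear intensities of the brightest probes. For a probe not well above background in the lower group, a bound of the fold was computed in which each array there took the larger of the probe's value and the least value so rated on that array. Such a bound holds for the values as deposited and not for the alternatives. The number of arrays limits the precision.

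Members and lists were chosen with earlier results of these data known. Besides the members, the genes named were Tia1, Tial1 and Gapdh, up to 4 called genes of each list and comparison with the largest change, Smad1, Smad5 and Smad9, Bmpr2, Acvr2a and Acvr2b, Id1, Id2 and Id3, and the 4 genes most like Grem1 and Inhbb (brightest probe well above background in at least 1 group). Of these last genes, 1 is not reported here. Marker genes were named after their values were seen. Same-numbered replicates did not deviate together (r = 0.0744, 0.0327 and -0.057). Fits were tested on simulated data, and nothing is read from that here. Promoters came from a RefSeq table of GRCm38.p6, and figures were drawn in Python 3.11.15 with matplotlib 3.10.9 and pandas 2.3.3. The alternatives were rebuilt values, an offset of 16, processed intensities scaled to the 75th percentile, a common array median, outliers kept, dim probes filtered, all 3 groups in the fit, the replicate block, the mean of a gene's probes and leaving out each array.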

Additional observations from a re-analysis of the deposited data

Results flagged for a closer look

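Of the 7 tested members and 76 pathway genes, 6 differed between TIAR KO and TIA1 KO MEF in the direct comparison (limma, 2 arrays per group). That comparison tests whether their changes from WT were unequal. Over all probes, 1.1% were called higher and 1.2% lower in it. Inhba (-3.99, adjusted p = 0.0183) and Msx1 (-2.95, adjusted p = 0.0188) were lower in TIAR KO MEF on the log2 scale. Smad9 (3.03, adjusted p = 0.0463), Id1 (2.23, adjusted p = 0.041), Pcolce2 (2.02, adjusted p = 0.0436) and Fst (1.77, adjusted p = 0.0438) were higher. For all 6 genes both TIAR KO arrays lay on the same side of both TIA1 KO arrays, as 60.4% of all probes did. None of the 6 was called with the replicate number as a block or without TIAR KO replicate 1 or 2, where 0 probes were called in all (9631, 6204 and 6297 at an unadjusted p under 0.05). No group held enough arrays for a test of outlying arrays.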

How the results depend on the processing

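Grem1 in TIA1 KO against WT MEF was 7.61 with processed intensities at the 75th percentile and 4.68 with a common array median, and Inhbb was 7.51 with rebuilt values, 8.06 with an offset of 16, 10.5 at the 75th percentile and 6.19 with a common median. Leaving out an array gave 5.42 to 5.89 for Grem1 and 6.93 to 7.34 for Inhbb. A common median turned Bmp1 (-0.46), Inhba (-0.26) and Bmp2, which is near background (-0.077), in TIA1 KO against WT, Fst (-0.069) in TIAR KO against WT, and Bmp1 (0.88), Bmp2 (0.19) and Bmp4 (0.17) in TIAR KO against TIA1 KO MEF. Bmp6 turned to -2.30 at the 75th percentile and Bmp1 to 0.45 as the mean of its probes in the last comparison. At the 75th percentile Bmp2 and Bmp6, near background, stood at 3.47 and 2.84 in TIA1 KO against WT, where Bmp6 had been negative. Leaving out an array moved Bmp2 between -0.10 and 0.32 in TIAR KO against WT, and Bmp2 between -0.31 and 0.11 and Bmp1 between -0.63 and 0.10 in TIAR KO against TIA1 KO MEF. The cause of these moves was not tested.

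Probes called in TIA1 KO against WT numbered 1309, and 1969 with rebuilt values, 0 at the 75th percentile (27765 at an unadjusted p under 0.05), 15801 with a common median, 2271 with dim probes filtered (fewer probes tested), 3600 with all 3 groups fitted, 0 with the replicate block (11353 at an unadjusted p under 0.05) and 0 to 11229 without an array, the highest without TIA1 KO replicate 2 and 0 without WT replicate 1 or 2 (6466 and 6629 at an unadjusted p under 0.05). In TIAR KO against WT they numbered 3172, and 2036 with all 3 groups, 2349 with the block and 0 to 922 without an array, 0 without TIAR KO replicate 1 (9653). In TIAR KO against TIA1 KO they numbered 1278, and 8307 with a common median, 2338 with dim probes filtered, 3311 with all 3 groups, 0 with the block (9631) and 0 to 11399 without an array, the highest without TIA1 KO replicate 2 and 0 without TIAR KO replicate 1 or 2 (6204 and 6297). The share called higher moved from 66.5% to 11.9%, from 58.6% to 34.4% and from 47.7% to 87.2% with a common median in the 3 comparisons, to 47.6% and 60.4% with dim probes filtered in the first and last, to 48.3% with all 3 groups in the first, and to 8.28% at the 75th percentile in the last.

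Pathway genes called in TIA1 KO against WT numbered 6, and 0 at the 75th percentile, 21 with a common median, 11 with dim probes filtered, 11 with all 3 groups, 0 with the block and 0 to 26 without an array. In TIAR KO against WT they numbered 9, and 4 with all 3 groups and 0 to 5 without an array. In TIAR KO against TIA1 KO they numbered 4, and 9 with rebuilt values, 2 at the 75th percentile, 18 with a common median, 10 with dim probes filtered, 11 with all 3 groups, 0 with the block and 0 to 28 without an array. Members more than 2-fold from WT in TIA1 KO MEF numbered 7, and 4 with a common median and 4 to 7 without an array. Members called in TIAR KO against WT numbered 2, and 1 at the 75th percentile, with a common median or with the block, and 0 whichever array was left out. In TIAR KO against TIA1 KO they numbered 2, and 1 at the 75th percentile and 0 with the block. The calls of Fst and Inhba there were both lost without TIAR KO replicate 1 or 2, and Nog was called as well without TIA1 KO replicate 2. The replicate block lost the calls of Bmp4 in TIAR KO against WT (adjusted p = 0.0559) and of Fst (0.162) and Inhba (0.117) between the knockouts; the numbers did not pair the arrays. Signal over background limits Bmp2 and Bmp6, Grem1 outside TIA1 KO MEF, Inhbb in WT MEF and Nog in TIA1 KO MEF.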
